A study of Mus musculus with 24 samples.

Results

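Erythroid genes were followed in whole mouse kidneys to measure the blood left in the tissue, because red cells express Slc4a1, the anion exchanger gene that also marks type A intercalated cells, the acid-secreting cells of the collecting duct. The members were taken by gene name: the adult alpha globins Hba-a1 and Hba-a2, the adult beta globins Hbb-bs and Hbb-bt, Alas2, Epb42 and Rhag. These are 7 of the 54393 genes in each deposited table; the list drawn up held 8 names, and the eighth is not analysed here. Slc4a1 was set beside them in every library.

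The study compared whole kidneys from embryonic day 18.5 mice by bulk RNA sequencing after poly(A) selection, in 24 libraries. Kidneys labelled Dmrt2 KO (3 libraries), Hmx3; Hmx2 KO (6 libraries) and Dmrt2; Hmx3; Hmx2 KO (3 libraries, called triple knockout below) were each set against the same number of control littermates of their own line. The labels do not give the alleles, and name a genotype (WT) only for the Hmx3 Hmx2 controls of replicates 1 to 3. Y-linked genes were detected in 1 Dmrt2 knockout of 3, against all 3 controls. For Hmx3 Hmx2 they were detected in 2 knockouts of 6, against 4 controls of 6. The triple line had them in 2 of the 3 labelled knockout, against 2 of the 3 controls. Library names each carry a number, which in the triple line is higher in all labelled knockouts than in any control. In the Dmrt2 line this number is lower in all knockouts than in any control. The labels do not say that it names an embryo or a litter, so the spread that the p-values rest on may be partly technical. Libraries held 52286800 to 127339000 counted reads (rounded), and 8 kidney segment markers summed to 2117 to 3065 CPM (gene counts scaled to a common library total) across the libraries. Dmrt2 averaged 1.99 ± 0.359 CPM in Dmrt2 knockouts and 13.8 ± 1.38 CPM in controls (SD, n = 3 each), and Hmx2 had 8 reads over the 6 Hmx3 Hmx2 knockouts, against 807 over their controls. In the libraries labelled triple knockout Hmx2 had 2 reads in all, against 872 in the controls. Dmrt2, however, was higher there, at 18.3 ± 0.694 CPM, against 11.6 ± 0.811 CPM in the controls (log2 fold change 0.69 ± 0.08 SE, edgeR adjusted p = 0.0042), which goes against the label if the allele removes the transcript; where in the gene the reads lie is not known here.

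Haemoglobin is built from alpha and beta globin chains around haem. Alas2 encodes the erythroid form of 5-aminolevulinate synthase, the first enzyme of haem synthesis, and Epb42, Rhag and Slc4a1 encode protein 4.2, the Rh-associated glycoprotein and band 3, which sit together in the red cell membrane. Red cells of mammals lose their nucleus as they mature but keep globin RNA for some time, and near birth the mouse fetus still makes red cells in its liver, so blood in a fetal organ carries these transcripts. The kidney form of Slc4a1 is made in type A intercalated cells from a start inside the gene, so the same gene name collects reads of both cell types here.

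The members of each adult globin pair are near copies, and their sequences are shown first because the counts of these 4 genes rest on few distinguishing bases. Positions below count from the A of the start codon, sequences are from GENCODE vM21 transcripts, and the capital marks the single base by which the coding sequences of a pair differ.
Hba-a1: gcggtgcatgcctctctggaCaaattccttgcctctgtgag
Hba-a2: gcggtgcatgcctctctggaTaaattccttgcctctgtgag
Hbb-bs: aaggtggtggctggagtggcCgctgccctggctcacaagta
Hbb-bt: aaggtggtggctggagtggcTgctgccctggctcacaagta
The alpha stretch covers bases 361 to 401 of 429, with C381T between Hba-a1 and Hba-a2, and the beta stretch bases 397 to 437 of 444, with C417T between Hbb-bs and Hbb-bt. Neither substitution changes the amino acid (D at codon 127 and A at codon 139). Of the 150-base windows of each transcript, the length of a read here, 39.8% for Hba-a1, 34.3% for Hba-a2, 41.3% for Hbb-bs and 49.3% for Hbb-bt occurred in no other gene, and every window of Alas2, Epb42, Rhag and Slc4a1 did. Reads that fit several places equally well were not counted, so globin levels are too low by an unknown share, and the split within a pair rests on the windows that differ.

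On mm39 the alpha genes lie side by side on the plus strand of chromosome 11 (Hba-a1 at 32233511 to 32234465, Hba-a2 at 32246489 to 32247298) and the beta genes on the minus strand of chromosome 7 (Hbb-bt at 103461731 to 103463203, Hbb-bs at 103475741 to 103477303). Alas2 lies on chromosome X (149330371 to 149353634), Epb42 on chromosome 2 (120848372 to 120867553), Rhag on chromosome 17 (41122017 to 41151645) and Slc4a1 on chromosome 11 (102239650 to 102257029). Alas2 shares 372 exon bases with Apex2 and Mir3620, where reads went uncounted; the exons of the other 6 members and of Slc4a1 overlap no other gene.

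The 250 bases before the RefSeq start (GRCm38.p6) are printed for genes whose levels moved together across libraries (Hbb-bs, Hbb-bt and Alas2) and for an alpha globin. Capitals mark matches on either strand to 4 short motifs. The first is AGATAA, a form of the GATA-type site. The second is CACCC, bound by Kruppel-like factors. The third is CCAAT, and the last is TATAA. In the Hbb-bt line a CCAAT match on each strand stands side by side, in the Alas2 line the TATAA matches of both strands overlap, and 3 CACCC matches on the opposite strand run together.
Hba-a1, chr11:32283422-32283671, plus strand: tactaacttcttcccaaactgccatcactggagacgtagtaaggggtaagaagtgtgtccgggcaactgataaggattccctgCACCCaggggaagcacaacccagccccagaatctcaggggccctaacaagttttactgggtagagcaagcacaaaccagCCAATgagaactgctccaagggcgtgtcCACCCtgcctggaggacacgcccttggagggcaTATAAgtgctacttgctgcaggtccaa
Hbb-bs, chr7:103827929-103828178, minus strand: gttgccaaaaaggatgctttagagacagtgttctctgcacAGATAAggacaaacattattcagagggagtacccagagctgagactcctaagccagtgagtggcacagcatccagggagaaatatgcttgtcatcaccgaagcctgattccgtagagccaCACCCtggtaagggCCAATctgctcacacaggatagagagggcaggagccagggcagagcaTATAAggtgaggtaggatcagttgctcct
Hbb-bt, chr7:103813924-103814173, minus strand: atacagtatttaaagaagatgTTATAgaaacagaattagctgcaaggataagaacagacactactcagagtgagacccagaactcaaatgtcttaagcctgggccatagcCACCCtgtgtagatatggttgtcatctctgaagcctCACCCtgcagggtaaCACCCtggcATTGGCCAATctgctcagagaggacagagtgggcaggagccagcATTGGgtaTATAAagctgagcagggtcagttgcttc
Alas2, chrX:150547167-150547416, plus strand: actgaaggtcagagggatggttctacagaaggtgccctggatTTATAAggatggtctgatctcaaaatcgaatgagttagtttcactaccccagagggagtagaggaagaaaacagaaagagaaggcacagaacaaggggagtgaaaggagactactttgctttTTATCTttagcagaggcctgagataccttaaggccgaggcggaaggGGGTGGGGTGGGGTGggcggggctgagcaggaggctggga
AGATAA was found in 3 of the 7 members' windows (Hbb-bs, Alas2 and Epb42) and in 10.3% of 27025 promoter windows of this length. Other forms of the GATA-type site were not searched for, so windows without AGATAA may still hold such a site. CACCC was in 6 of 7 and 51.3% of all, CCAAT in 5 of 7 and 34.5% of all, and TATAA in 6 of 7 and 23.5% of all. The windows of Hba-a1 and Hba-a2 hold an identical run of all but 3 of 300 bases when the 50 bases after the start are included.

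Globin RNA was a small share of every library. The 4 adult globins together took 0.104% to 0.120% of counted reads in Dmrt2 knockouts and 0.0938% to 0.129% in their controls, 0.0881% to 0.169% in Hmx3 Hmx2 knockouts and 0.0818% to 0.184% in controls, and 0.0984% to 0.135% in the libraries labelled triple knockout and 0.0879% to 0.107% in controls. CPM, scaled with TMM factors, were divided by exon length to order the genes. Over the 24 libraries Hba-a1 stood at 698 ± 183 CPM per kb, Hbb-bs at 516 ± 128, Hba-a2 at 299 ± 126, Hbb-bt at 81.0 ± 54.8, Alas2 at 8.86 ± 2.13, Slc4a1 at 3.28 ± 1.37, Epb42 at 0.491 ± 0.166 and Rhag at 0.0247 ± 0.0146 (SD, n = 24). Within 1 SD, Hba-a1 overlapped Hbb-bs, and Hbb-bs overlapped Hba-a2, while the later neighbours in that order did not overlap over all libraries; in Dmrt2 knockouts alone Slc4a1 (0.644, 0.745 and 0.897 CPM per kb) overlapped Epb42 (0.636, 0.720 and 0.696 CPM per kb). Rhag had 0 to 12 reads per library, and fewer cells of a type and less RNA per cell cannot be told apart in such bulk samples.

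In Dmrt2 knockouts Slc4a1 fell while no erythroid member passed the test, apart from Alas2 when low counts were not filtered out. Of the 6 members that passed the filter on low counts 0 were called at an adjusted p under 0.05. Of the 19807 genes tested 0.444% were called (0.187% higher and 0.257% lower). An unadjusted p under 0.05 was found for 1 member (Alas2), against 2443 of all genes tested. Rhag was below the filter in all 3 comparisons.

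Among the alpha globins, Hba-a1 had 501, 461 and 532 CPM in Dmrt2 knockouts, against 495, 586 and 422 CPM in controls (log2 fold change 0.0011 ± 0.109 SE, adjusted p = 0.999). The knockout values lay inside the control range. Hba-a2 had 285, 248 and 283 CPM in the knockouts, against 262, 309 and 213 CPM in controls (0.07 ± 0.13, adjusted p = 0.88), again within the control range. Of the beta globins, Hbb-bs had 349, 301 and 366 CPM in knockouts, against 371, 383 and 306 CPM in controls (−0.05 ± 0.09, adjusted p = 0.88). Hbb-bt had 27.5, 23.5 and 27.1 CPM in knockouts, against 20.3, 28.2 and 15.4 CPM in controls (0.30 ± 0.23, adjusted p = 0.67). Both beta globins overlapped between the groups.

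Alas2 had 23.99, 19.5 and 24.4 CPM in Dmrt2 knockouts, against 20.7, 19.1 and 16.1 CPM in controls (0.29 ± 0.11, edgeR adjusted p = 0.30). Its 2 highest libraries were knockouts, but the groups overlapped. Without a filter on low counts Alas2 was called (0.29, adjusted p = 0.046). The membrane gene Epb42 had 3.44, 3.90 and 3.77 CPM in knockouts, against 4.83, 2.16 and 2.35 CPM in controls (0.26 ± 0.29, adjusted p = 0.78), with control replicate 1 above every knockout and the other controls below; without that control the log2 fold change was 0.73 (adjusted p = 0.071). Rhag had 4, 4 and 0 reads in knockouts, against 6, 0 and 2 reads in controls, too few for a comparison at this depth. The median log2 fold change of the 6 tested members was 0.16, against −0.0021 over all genes tested.

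Slc4a1 had 3.15, 3.64 and 4.38 CPM in Dmrt2 knockouts (216, 226 and 554 reads), against 18.6, 15.6 and 17.2 CPM in controls (1344, 1202 and 1200 reads). The groups did not overlap, as was the case for 17.2% of all genes tested, and the log2 fold change was −2.19 ± 0.13 SE (adjusted p = 2.4e-06). With the mean log2 CPM of the 6 tested members as a covariate it was −2.21 in the same 6 libraries (adjusted p = 1.9e-05), and with Y-linked expression as a covariate −2.43 (adjusted p = 0.00046), where 0 members were called. Reads per 100 Alas2 reads were 13.1, 18.7 and 17.96 in knockouts, against 90.0, 82.0 and 107.1 in controls, a 5.64-fold lower geometric mean (exact permutation p = 0.1, two-sided, the smallest that 3 against 3 libraries can give). Per 1000 beta globin reads Slc4a1 had 8.38, 11.2 and 11.1 reads in knockouts, against 47.6, 38.0 and 53.5 in controls, 4.52-fold lower (exact permutation p = 0.1). Neither ratio overlapped between the groups.

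**Figure D1:**
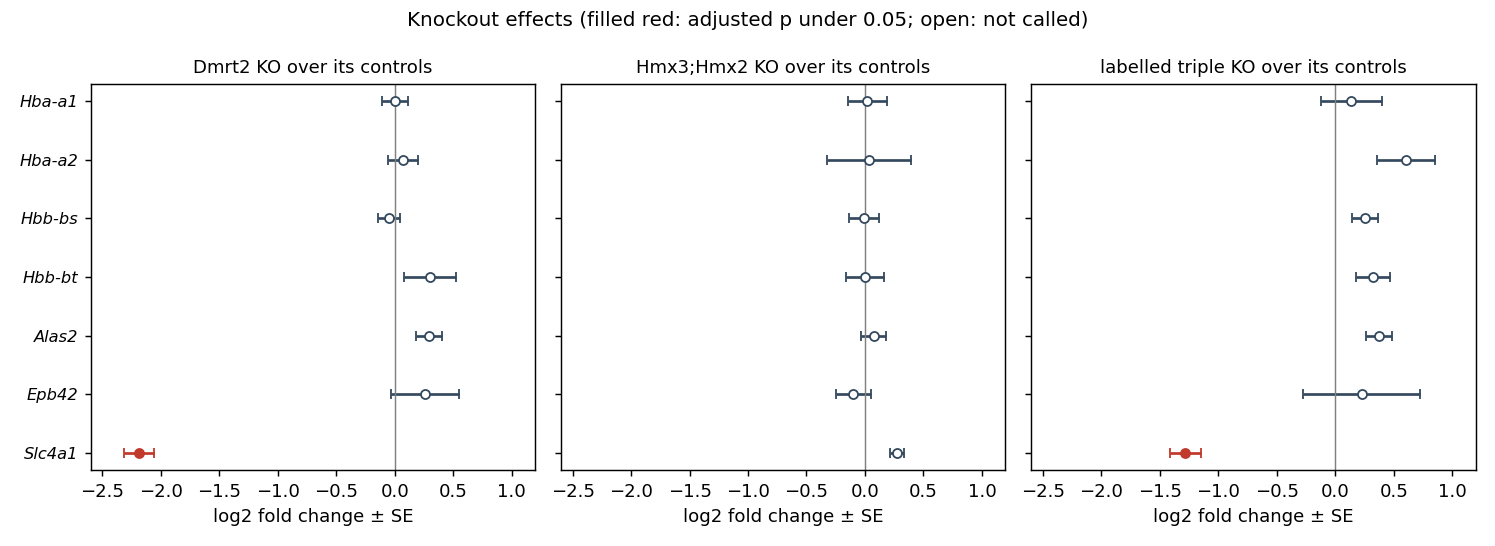
Log2 fold change ± SE (horizontal axis) of the 6 tested erythroid members and of Slc4a1 (rows) for each knockout over the controls of its own line (panels). The members lie between −0.10 and 0.61 and none is called, whereas Slc4a1 lies at −2.19 in the Dmrt2 panel and −1.28 in the triple panel.

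In the Hmx3 Hmx2 comparison neither the members nor Slc4a1 passed the test. Here 0 of 6 members were called, against 0.021% of 19050 genes (0.00525% higher and 0.0157% lower). An unadjusted p under 0.05 was found for 0 members, against 940 of all genes tested. The groups overlapped for every member, as for all but 0.084% of the genes tested. Their log2 fold changes ran from −0.10 (Epb42, ± 0.15 SE) to 0.07 (Alas2, ± 0.11), with adjusted p from 0.97 to 0.999 by edgeR and a median of 0.011, against −0.0052 over all genes tested. Hba-a1 had 450, 562 and 838 CPM (lowest, median and highest of 6) in knockouts, against 358, 545 and 934 CPM in controls. Hba-a2 had 85.4, 216 and 312 CPM (lowest, median and highest of 6) in knockouts, against 79.4, 188 and 351 CPM in controls. For both alpha globins the knockout values lay inside the control range.

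Globin levels in these 12 libraries differed more between the deposited tables, which hold replicates 1 to 3 and 4 to 6, than between genotypes. Hbb-bt had 33.1, 49.2 and 61.1 CPM as lowest, median and highest in knockouts of replicates 1 to 3, against 32.6, 41.8 and 56.7 CPM in controls, and 107.4, 108 and 125 CPM in knockouts of replicates 4 to 6, against 119, 127 and 129 CPM in controls. Every library of the later replicates was above every library of the earlier ones, in both genotypes. Hbb-bs averaged 376 ± 78.2 CPM in knockouts and 350 ± 80.2 CPM in controls of replicates 1 to 3, and 516 ± 28.4 CPM in knockouts and 569 ± 15.4 CPM in controls of replicates 4 to 6 (SD, n = 3 each). Alas2 averaged 17.7 ± 3.29 CPM in knockouts and 15.5 ± 2.96 CPM in controls of replicates 1 to 3, and 27.5 ± 3.06 CPM in knockouts and 28.5 ± 0.122 CPM in controls of replicates 4 to 6. Epb42 did not show the split, at 2.19 ± 0.238 and 2.50 ± 0.441 CPM in knockouts and controls of replicates 1 to 3 and 2.03 ± 0.598 and 2.06 ± 0.344 CPM in knockouts and controls of replicates 4 to 6. The labels do not say how the tables differ, and the difference between them was not tested.

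Slc4a1 did not follow this split. It had 20.1, 21.9 and 25.6 CPM as lowest, median and highest in the 6 Hmx3 Hmx2 knockouts, against 16.6, 18.7 and 20.6 CPM in the 6 controls, with overlapping groups (0.27 ± 0.06 SE, adjusted p = 0.76, unadjusted p = 0.00044). Reads per 100 Alas2 reads were 135 in knockouts and 117 in controls of replicates 1 to 3 as geometric means, and 77.4 in knockouts and 67.7 in controls of replicates 4 to 6. Over all 12 libraries the ratio was 1.15-fold higher in knockouts (exact permutation p = 0.45, two-sided), and 1.16-fold and 1.14-fold higher within the 2 tables (exact permutation p = 0.4 and 0.3).

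In the libraries labelled triple knockout the tested members had fold changes above 0 without passing the test, while Slc4a1 fell. Of 6 members 0 were called, against 1.03% of 21537 genes tested (0.585% higher and 0.446% lower). An unadjusted p under 0.05 was found for 1 member (Alas2), against 3858 of all genes tested. All 6 log2 fold changes were above 0, with a median of 0.29, against 0.00098 over all genes tested.

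Hba-a2 had 132, 118 and 198 CPM in the libraries labelled triple knockout, against 90.9, 115.4 and 92.4 CPM in controls (0.61 ± 0.25 SE, edgeR adjusted p = 0.31). These groups did not overlap, as for 25.6% of all genes tested, and replicate 3 of those labelled knockout was the highest; without it the log2 fold change was 0.34 (adjusted p = 0.29). Hba-a1 had 732, 633 and 402 CPM in the same libraries, against 485, 631 and 514 CPM in controls (0.14 ± 0.26, adjusted p = 0.83), and replicate 3 was lowest for this gene; without replicate 1 of those labelled knockout the log2 fold change was −0.045. The alpha pair summed to 864, 751 and 600 CPM in the libraries labelled triple knockout, against 576, 747 and 606 CPM in controls, and overlapped.

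Hbb-bs had 427, 345 and 314 CPM in the libraries labelled triple knockout, against 282, 310 and 334 CPM in controls (0.25 ± 0.11, adjusted p = 0.29). Hbb-bt had 52.2, 41.1 and 36.4 CPM in these libraries, against 35.7, 38.5 and 31.1 CPM in controls (0.32 ± 0.14, adjusted p = 0.30). Alas2 had 26.6, 21.3 and 19.1 CPM in the libraries labelled triple knockout, against 16.4, 19.1 and 17.0 CPM in controls (0.38 ± 0.11, adjusted p = 0.15). In all 3 genes replicate 1 of those labelled knockout was the highest of the 6 libraries and the groups overlapped. Without a filter on low counts Hbb-bs, Hbb-bt and Alas2 were called (adjusted p = 0.0039, 0.0028 and 0.00052), and DESeq2 called Alas2 (adjusted p = 0.021).

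Epb42 had 3.50, 2.84 and 2.77 CPM in the libraries labelled triple knockout, against 0.958, 2.94 and 4.01 CPM in controls (0.23 ± 0.50, adjusted p = 0.85), with the controls spread to both sides of them; without control replicate 1 its sign turned, at −0.17. Rhag had 10, 0 and 6 reads in the libraries labelled triple knockout, against 8, 12 and 8 reads in controls.

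Slc4a1 had 7.69, 5.98 and 8.06 CPM in the libraries labelled triple knockout (2276 reads in all), against 16.7, 20.9 and 16.1 CPM in controls (5766 reads), with no overlap (−1.28 ± 0.13 SE, edgeR adjusted p = 0.0041). With the members' mean log2 CPM as a covariate the log2 fold change was −1.39 (adjusted p = 0.022). Reads per 100 Alas2 reads were 29.0, 28.0 and 42.2 in the libraries labelled knockout, against 102, 110 and 94.9 in controls, 3.14-fold lower (exact permutation p = 0.1, two-sided, the smallest possible). Per 1000 beta globin reads it was 2.90-fold lower (exact permutation p = 0.1). Values per Alas2 read again did not overlap.

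**Figure D2:**
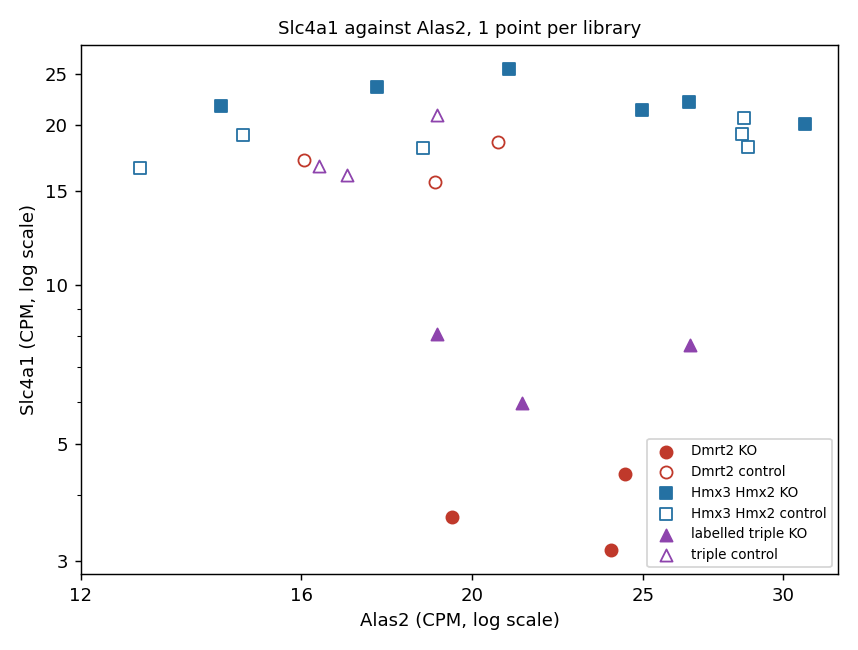
Slc4a1 CPM (vertical log axis) against Alas2 CPM (horizontal log axis), 1 point per library; filled symbols are knockouts and open symbols their controls. At Alas2 levels of 19.1 to 26.6 CPM the 3 Dmrt2 knockouts and the 3 libraries labelled triple knockout lie at 3.15 to 8.06 CPM of Slc4a1, below every other library.

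The effects were also set against each other in a fit of all 24 libraries with the deposited table as a term, so that no comparison shares controls. For the 6 members 0 of 18 differences between knockout effects were called, with edgeR adjusted p from 0.51 to 0.998; the shares called among all 22101 genes were 0.394% for triple minus Dmrt2, 0.968% for triple minus Hmx3 Hmx2 and 0.154% for Dmrt2 minus Hmx3 Hmx2. For Slc4a1 the triple effect was less negative than the Dmrt2 effect by 0.90 ± 0.17 on the log2 scale (adjusted p = 0.011). It was more negative than the Hmx3 Hmx2 effect (difference −1.56 ± 0.15, adjusted p = 7.0e-07), and so was the Dmrt2 effect (−2.46 ± 0.15, adjusted p = 3.1e-11).

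Within groups, both beta globins, Alas2 and the summed alpha pair varied together from library to library, whereas Hba-a2 on its own, Epb42 and Rhag passed the test with no other member. Deviations of log2 CPM from the mean of each group and table were correlated over the 24 libraries, with two-sided permutation p within groups, adjusted over the 27 pairs compared. Hbb-bs and Alas2 had r = 0.93 and rho = 0.91 (adjusted p = 0.0012 and 0.0015), and r = 0.90 without the 2 libraries farthest out. Hba-a1 on its own had r = 0.63 and rho = 0.63 with Alas2 (adjusted p = 0.015 and 0.016), and r = 0.64 without 2 libraries. With Hbb-bs it had r = 0.57 and rho = 0.63 (adjusted p = 0.019 and 0.016), and r = 0.55 without 2 libraries. With Hbb-bt it had r = 0.56 and rho = 0.64 (adjusted p = 0.019 and 0.016), and r = 0.61 without 2 libraries. Hbb-bs with Hbb-bt had r = 0.87 and rho = 0.81 (adjusted p = 0.0018 and 0.0037; r = 0.82 without 2 libraries). The summed alpha pair had r = 0.88 and rho = 0.87 with Alas2 (adjusted p = 0.00067 and 0.00067; r = 0.84 without 2 libraries), and r of 0.68 to 0.98 within each of the 4 tables. Hba-a2 had r = −0.27 with Hba-a1 (rho = −0.31, adjusted p = 0.40 and 0.41; r = −0.077 without 2 libraries) and r = 0.43 with Alas2 (rho = 0.29, adjusted p = 0.29 and 0.50; r = 0.21 without 2 libraries). Its r with Hbb-bs was 0.51 (rho = 0.33, adjusted p = 0.27 and 0.41; r = 0.29 without 2 libraries), and ran from −0.77 to 0.91 within the 4 tables. All these genes share the depth and preparation of each library.

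Epb42 and Rhag followed the globins less closely. Epb42 had r = 0.29 with Alas2 (rho = 0.33, adjusted p = 0.27 and 0.33; r = 0.27 without 2 libraries), and Rhag r = 0.12 (rho = 0.15, adjusted p = 0.85 and 0.75; r = 0.22 without 2 libraries), with Rhag limited by its few reads.

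Slc4a1 itself was tested against each of the 7 members, with p adjusted over these 7. For Alas2 r was 0.28 and rho 0.33 (adjusted p = 0.49 and 0.48; r = 0.25 without the 2 farthest libraries), for Hbb-bs r was 0.21 and rho 0.19 (adjusted p = 0.49 and 0.55; r = 0.16 without 2), and for Hbb-bt r was 0.18 and rho 0.21 (adjusted p = 0.49 and 0.55; r = 0.23 without 2). Hba-a1 had r = −0.15 and rho = −0.14 (adjusted p = 0.64 and 0.58), Epb42 0.30 and 0.34 (0.49 and 0.48), and Rhag 0.26 and 0.28 (0.49 and 0.53). Without the 2 farthest libraries these were 0.043, 0.47 and 0.35. Hba-a2 alone passed for r, at 0.50 (adjusted p = 0.026), while rho was 0.51 (adjusted p = 0.0505) and r without 2 libraries 0.46. The libraries fall into 2 sets on Hba-a2, described next, so no relation is read from this pooled value. With deviations taken within each set, r was 0.84 and rho 0.67 in the low set (9 libraries, exact permutation p = 0.042 for both, not adjusted). In the high set r was −0.24 and rho −0.45 (10 libraries, exact permutation p = 0.51 and 0.26). Libraries alone in their group, table and set were left out. The log2 change of Slc4a1 per log2 unit of the members' mean level was 0.28 ± 0.15 SE in the fit of 24 libraries (edgeR adjusted p = 0.64).

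The split of reads within the alpha pair fell at 2 levels, and both occurred among knockouts and among controls. Hba-a2 had 17.97 to 21.5 reads per 100 Hba-a1 reads in 11 libraries and 48.4 to 56.9 in the other 13, with none between. All 3 Dmrt2 knockouts (56.9, 53.9 and 53.2) and all 3 of their controls (53.0, 52.6 and 50.5) were in the high set. Among Hmx3 Hmx2 libraries 3 knockouts (replicates 2, 4 and 6) and 3 controls (1, 2 and 6) were high and the others low. In the triple line replicate 3 of the libraries labelled knockout was high (49.1), the other 2 low (18.01 and 18.62), and all 3 controls low (18.72, 18.28 and 17.97). The share of Hba-a2 in the alpha reads had an exact 95% binomial interval of at most ± 0.45 percentage points in any library, which covers counting error only, treating reads as independent although both reads of a pair are counted.

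In the triple line 1 of 3 libraries labelled knockout and 0 of 3 controls were in the high set; the part of this in the Hba-a2 difference was not tested, apart from the value without that library given above. Within the beta pair Hbb-bt had 7.90, 7.80 and 7.41 reads per 100 Hbb-bs reads in Dmrt2 knockouts, against 5.47, 7.37 and 5.02 in controls. It had 11.2 to 13.5 in Hmx3 Hmx2 knockouts and 11.6 to 12.95 in controls of replicates 1 to 3, and 21.05 to 22.8 in knockouts and 21.1 to 23.3 in controls of replicates 4 to 6. In the triple line it had 12.2, 11.9 and 11.6 in the libraries labelled knockout, against 12.6, 12.4 and 9.32 in controls. The ratio in the Dmrt2 table did not overlap between genotypes (7.41 as the lowest knockout and 7.37 as the highest control). Both genotypes of Hmx3 Hmx2 replicates 4 to 6 lay above every other library, and the triple line overlapped Hmx3 Hmx2 replicates 1 to 3.

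**Figure D3:**
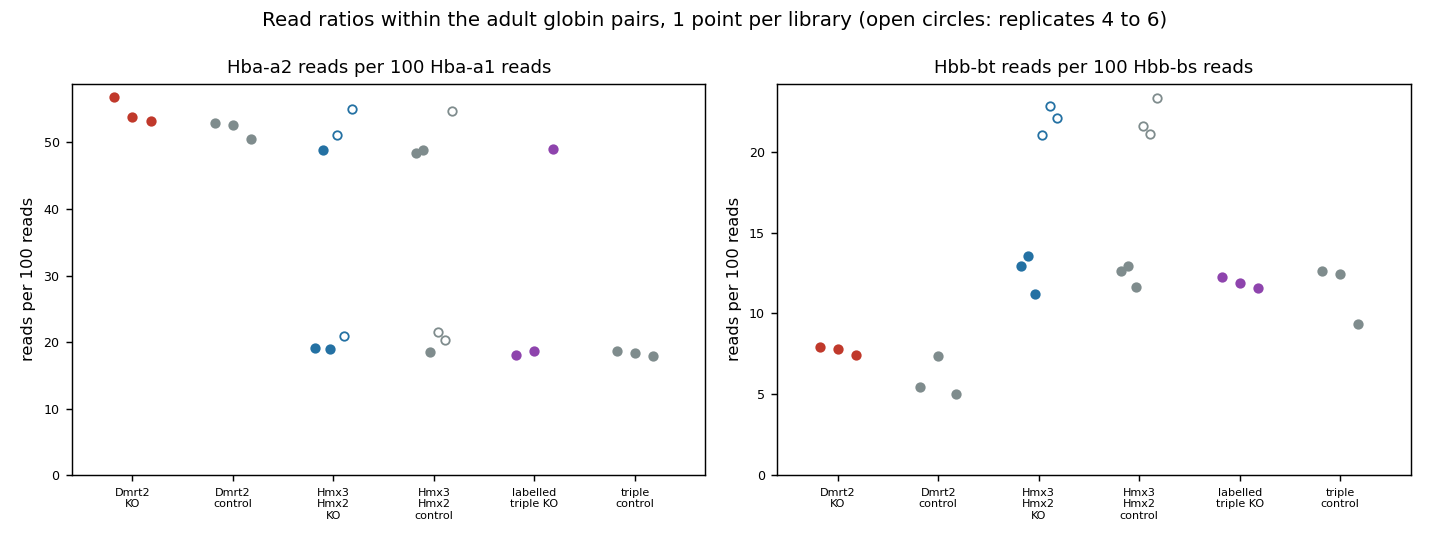
Hba-a2 reads per 100 Hba-a1 reads (left) and Hbb-bt reads per 100 Hbb-bs reads (right), 1 point per library by group, knockouts left of their controls. The alpha ratio lies at 17.97 to 21.5 or at 48.4 to 56.9 in knockouts and controls alike, and the beta ratio lies at 21.05 to 23.3 in the Hmx3 Hmx2 replicates 4 to 6 of both genotypes.

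Other red cell genes were read from 6 lists. Over all genes tested the share called was 0.444% (Dmrt2), 0.021% (Hmx3 Hmx2) and 1.03% (triple). Of the embryonic and minor globins 2 of 7 passed the filter and 0 were called in any comparison: Hba-x, the embryonic zeta-type chain, averaged 0.435 ± 0.118 CPM in Dmrt2 knockouts and 0.233 ± 0.136 CPM in controls (0.91 ± 0.45 SE, edgeR adjusted p = 0.45). Hbb-y, the embryonic epsilon-type chain, averaged 0.336 ± 0.171 CPM in Dmrt2 knockouts and 0.110 ± 0.0304 CPM in controls (1.60 ± 0.53, adjusted p = 0.25). Its groups did not overlap, as for 17.2% of all genes tested, and its reads were few, at 84 over the knockouts and 24 over the controls. Hbb-bh0 and Hbb-bh2 had 0 reads in every library.

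Of 12 genes of haem synthesis and mitochondrial iron transport, all tested, 0 were called in the Dmrt2 and Hmx3 Hmx2 comparisons and 2 rose in the libraries labelled triple knockout, where the median of the list was −0.07. Ppox, the protoporphyrinogen oxidase gene, averaged 38.2 ± 4.55 CPM in the libraries labelled triple knockout and 28.5 ± 1.55 CPM in controls (0.45 ± 0.09, adjusted p = 0.042). Slc25a37, which encodes the mitochondrial iron importer mitoferrin, averaged 44.7 ± 3.16 CPM in the libraries labelled knockout and 35.9 ± 1.69 CPM in controls (0.34 ± 0.07, adjusted p = 0.039). The other steps were not called, among them Cpox (−0.11) and Fech (−0.04), the last enzyme of the pathway. Alad averaged 85.5 ± 29.7 CPM in the libraries labelled knockout and 91.3 ± 63.6 CPM in controls, with a 3.19-fold range over the 24 libraries. Most cells make these enzymes.

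Of 16 red cell membrane and skeleton genes 15 were tested and 0 called in each comparison, with medians of −0.03 (Dmrt2), −0.0086 (Hmx3 Hmx2) and −0.06 (triple). Epb41, the protein 4.1 gene, averaged 241 ± 10.5 CPM in Dmrt2 knockouts and 235 ± 9.41 CPM in controls (0.04 ± 0.06, adjusted p = 0.83). Of 10 erythroid transcription factors 8 were tested and 0 called. Zfpm1, Lmo2, Sox6 and Tal1 had the highest levels (10.5 to 66.4 CPM on average over the 24 libraries), and all are also expressed outside red cells. Gata1, the erythroid master regulator, had 2 to 20 reads per library and Gfi1b was below the filter as well.

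Of 7 genes of the erythropoietin receptor and iron uptake 7 were tested and 0 called. Tfrc, the transferrin receptor gene, had a log2 fold change of 0.15 ± 0.05 in the libraries labelled triple knockout (adjusted p = 0.15). Of 12 late red cell enzymes and other late genes 8 or 9 were tested, and the single call was Ube2l6, a ubiquitin-conjugating enzyme gene, which fell to 15.3 ± 1.44 CPM in the libraries labelled triple knockout, against 21.6 ± 2.22 CPM in controls (−0.47 ± 0.10, adjusted p = 0.044). Car1, Hemgn and Cldn13, markers of erythroid cells in the mouse, were below the filter in every comparison.

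**Figure D4:**
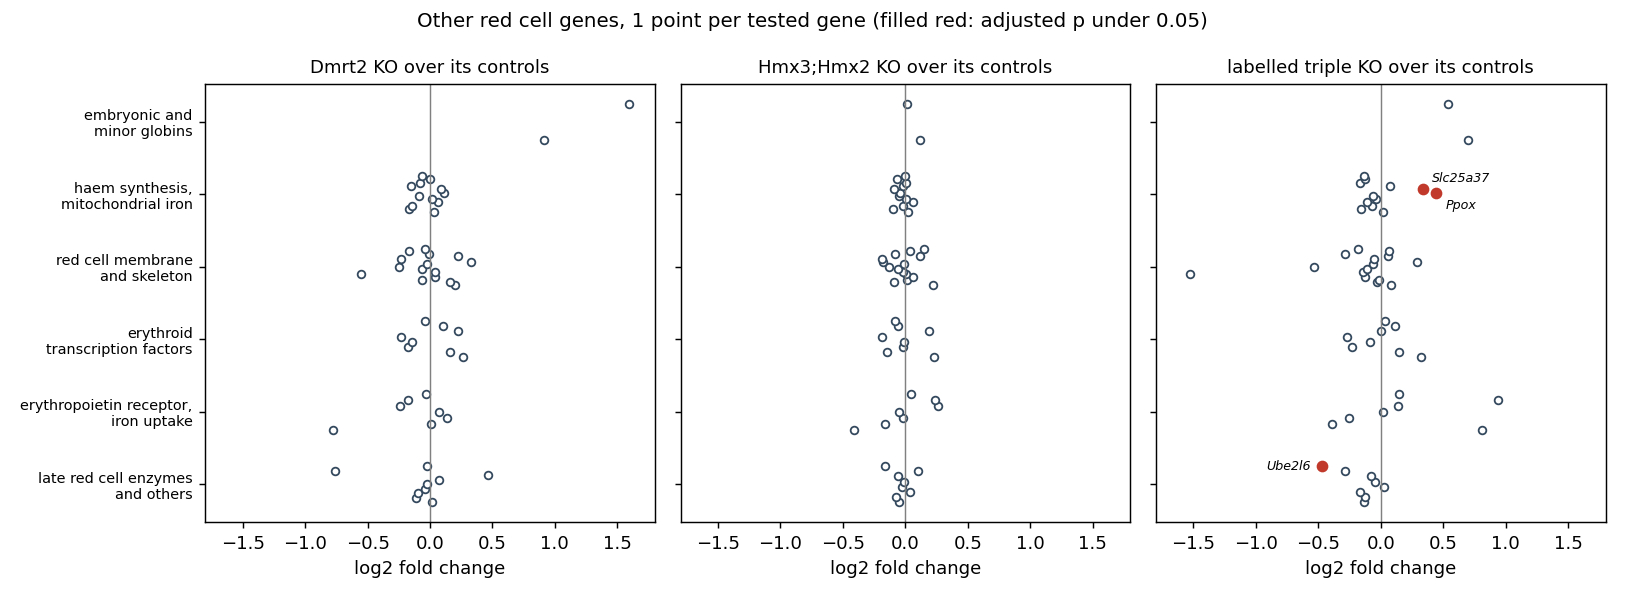
Log2 fold change (horizontal axis) of each tested gene of 6 red cell lists (rows) for each knockout over its controls (panels). Filled points are the 3 calls, Slc25a37 (0.34), Ppox (0.45) and Ube2l6 (−0.47), all in the libraries labelled triple knockout.

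Markers of other blood and tissue cells were read in the same libraries, where 0.444% (Dmrt2) and 1.03% (triple) of all genes tested were called. Granulocyte markers summed to 6.04 to 6.36 CPM in the libraries labelled triple knockout, against 8.73 to 11.4 CPM in controls, over 10 genes, of which S100a8 (−1.28 ± 0.26 SE, edgeR adjusted p = 0.043) and Ngp (−1.56 ± 0.31, adjusted p = 0.042) fell and 0 of 8 tested rose. In the Dmrt2 line they summed to 6.78 to 8.69 CPM in knockouts and 8.57 to 9.39 CPM in controls, and 0 of 8 were called. Platelet markers summed to 12.7 to 15.2 CPM in the libraries labelled triple knockout and 13.2 to 14.9 CPM in controls, with 0 of 8 called. Of 8 hepatocyte markers Serpina1a rose in the libraries labelled triple knockout (0.70 ± 0.14, adjusted p = 0.042) and Fgb in Dmrt2 knockouts (1.18 ± 0.19, adjusted p = 0.024). The 8 hepatocyte markers summed to 118 to 157 CPM in Dmrt2 knockouts, against 176 to 222 CPM in controls, and to 153 to 201 CPM in the libraries labelled triple knockout, against 131 to 165 CPM in controls. Macrophage markers summed to 108 to 117 CPM in the libraries labelled triple knockout, against 119.9 to 151 CPM in controls. These sums did not overlap, as was the case for 25.6% of single genes tested there. Csf1r had the highest level of these markers (44.6 CPM on average over the 24 libraries). In the triple line 0 of 8 macrophage markers were called and 5 had an unadjusted p under 0.05, against 3858 of the 21537 genes tested. Of the endothelial markers 0 were called in the Dmrt2 and triple comparisons. The part of these cells in the erythroid values was not tested.

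Among the 12 genes whose within-group deviations were most like those of Hbb-bs, Hbb-bt, Alas2 and Epb42 over the 24 libraries were, in falling order of mean r, Ddost (0.70), Zfp949, Ppp2ca, Fam167a, Ogfod3, Pnma2, Creb3l1, Tpbg, Rab3il1, Sema3f and Gm8210 (0.63). The alpha pair, whose split varies, and Rhag, with too few reads, were left out of that mean after their values had been seen. Ddost, which encodes a subunit of the oligosaccharyltransferase complex, had r = 0.83 with Hbb-bs, 0.75 with Hbb-bt and 0.82 with Alas2, as a description over these 24 libraries. Slc4a1 ranked 3504th of 16548 genes, with a mean r of 0.24.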

How the data were processed

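The 4 deposited tables hold raw counts per gene from the authors, covering 24 libraries. The submitters' processing notes name fastp 0.20.1 for trimming, STAR 2.7.0e for alignment to mm39 and featureCounts 2.0.1 for counting (2.0.3 per the file headers, on GENCODE vM29). Per the file headers, neither strand, multi-mapping reads nor pairs were used, so a count is a read, both mates count, and antisense reads cannot be told apart. Left unused were 2 columns whose names fit no sample. Groups and replicate numbers come from the sample titles.

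Differences were tested with edgeR 4.0.16 (R 4.3.3), using TMM, filterByExpr (minimum count 10, total 15), robust quasi-likelihood F tests and Benjamini-Hochberg adjustment over all genes tested, with a threshold of 0.05. For the Hmx3 Hmx2 line the model also held the table of origin. SE is the absolute log2 fold change over the square root of F. Printed CPM use TMM over all 24 libraries. Log2 CPM of single genes, used for the members' mean level and for correlations other than those within the Hba-a2 sets, hold a prior count of 2. Correlations within the Hba-a2 sets used CPM plus a small constant instead. Differences of such log2 values are understated where reads are few. Log2 fold changes come from the edgeR fit, which did not use this prior count. The procedure was tested on simulated data. Alternatives were DESeq2 1.42.0, other scalings, filters, covariates and left-out libraries. Permutations used 100000 resamples within groups, or all arrangements where exact (scipy 1.17.1).

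The members and gene lists were chosen with earlier results of these data known. Named genes are the members, Slc4a1, the targeted genes, each list's called genes and those of highest CPM, and the 12 most alike; Hbb-bh0, Hbb-bh2, Gata1, Gfi1b, Car1, Hemgn and Cldn13 were named after their values were seen. Some genes, among them 1 of the list drawn up, are not reported here.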

Additional observations from a re-analysis of the deposited data

Results flagged for a closer look

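1 library stood apart from the rest of its group among 34 groups tested, where chance gives about 1 in 20: Hba-a1 in replicate 5 of the Hmx3 Hmx2 knockouts, at 838 CPM, against 450 to 590 CPM in the other 5 knockouts. This is no more than chance gives. The group pools replicates 1 to 3 and 4 to 6, and controls of replicates 4 to 6 had 934, 859 and 641 CPM. The Hba-a2 to Hba-a1 ratio of knockout replicate 5 belongs to the low set (20.9 reads per 100).

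The knockout effect on Slc4a1 differed between the lines. The difference was 0.90 on the log2 scale for triple minus Dmrt2, −1.56 for triple minus Hmx3 Hmx2 and −2.46 for Dmrt2 minus Hmx3 Hmx2, while for the 6 tested erythroid members none of these differences was called by edgeR (adjusted p from 0.51 to 0.998).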

How the results depend on the processing

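Of the alternatives other than leaving out a library, 282 values kept their direction and side of the threshold, 24 changed sign, 14 moved, 5 came to pass the threshold and 4 no longer did; with 1 library left out 197 were kept, 35 changed sign and 8 moved. The causes were not tested. Members called by edgeR without a filter on low counts were 1 in the Dmrt2 line (Alas2, adjusted p = 0.046) and 3 in the triple line, where DESeq2 called 1.

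Slc4a1 in the triple line had a log2 fold change of −1.28 (adjusted p = 0.0509) with the replicate number as a block, where its call was lost; the block changed no other call of the members or Slc4a1. Same-numbered libraries correlated at 0.12, 0.20 and 0.09 (Dmrt2), −0.12 to 0.38 (Hmx3 Hmx2) and −0.45, −0.41 and −0.13 (triple), and 5 of 6, 7 of 12 and 0 of 6 libraries correlated best with their own number. The numbers were not used as pairs because the labels do not say that they mark litters. Whether they pair libraries in the Dmrt2 and Hmx3 Hmx2 lines, where most matched their own number, was not tested. With 1 library left out Slc4a1 ranged over −2.32 to −2.08, 0.23 to 0.32 and −1.38 to −1.16 in the 3 lines (Dmrt2, Hmx3 Hmx2, triple). The log2 ratio of Slc4a1 to beta globin reads in Dmrt2 was −2.18, in place of −2.49 with Alas2; this alternative was chosen after seeing the data.

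Genes called of all tested in the Dmrt2 line were 88, against 417 with DESeq2, 676 without a filter, 13 with Y-linked expression as a covariate and 26 to 195 with 1 library left out (26 without knockout replicate 2, 195 and 53 without control replicates 1 and 3). In the Hmx3 Hmx2 line they were 4, against 2 with a minimum of 1 CPM and 2 in either table alone. In the triple line they were 222, against 1034 with DESeq2, 1510 without a filter, 51 with the replicate block, 573 in the joint fit and 20 to 438 with 1 library left out (96 and 20 without replicates 2 and 3 of those labelled knockout, 145, 84 and 438 without control replicates 1, 2 and 3).

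Signs turned only for log2 fold changes that were not called. Hba-a1 in Dmrt2 was −0.0016 with DESeq2 size factors, −0.00075 with DESeq2 and −0.0010 with a minimum of 1 CPM. In the Hmx3 Hmx2 line Hba-a1 was −0.0025 with the Y-linked covariate, −0.049 without the table term and −0.28 in replicates 4 to 6. Hba-a2 was −0.015 with the Y-linked covariate and −0.057 in replicates 1 to 3, Hbb-bs 0.12 in replicates 1 to 3 and Alas2 −0.049 in replicates 4 to 6. Hbb-bt was −0.0066 with red cell genes left out of library totals, −0.0072 without a filter, −0.00018 with a minimum of 1 CPM, −0.0040 with the block, −0.038 with the Y-linked covariate, −0.056 without the table term and −0.13 in replicates 4 to 6.

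With 1 library left out, Dmrt2 log2 fold changes ranged over −0.11 to 0.13 (Hba-a1), −0.060 to 0.20 (Hba-a2) and −0.15 to 0.02 (Hbb-bs). Hmx3 Hmx2 ones ranged over −0.058 to 0.11 (Hba-a1), −0.23 to 0.19 (Hba-a2), −0.089 to 0.061 (Hbb-bs), −0.11 to 0.083 (Hbb-bt) and −0.0015 to 0.13 (Alas2), and triple ones over −0.045 to 0.34 (Hba-a1) and −0.17 to 0.66 (Epb42).

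Within single tables r of Slc4a1 with Hba-a2 was −0.20 (Dmrt2), 0.88 and 0.95 (Hmx3 Hmx2 replicates 1 to 3 and 4 to 6) and 0.80 (triple), each over 6 libraries. Other signs that turned were Hba-a1 0.021 in Hmx3 Hmx2 replicates 1 to 3, Hbb-bs −0.68, Hbb-bt −0.17 and Alas2 −0.52 in replicates 4 to 6, and Hbb-bt −0.27 and Rhag −0.21 in Dmrt2. Depth limits Rhag, with 0 to 12 reads per library.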
